A study of Mus musculus with 4 samples.

Results

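Lymphatic endothelial cells were examined in dissociated mouse ovaries profiled by single-cell RNA sequencing. They were chosen by transcripts and not by a sort. A cell was a member when it held at least 1000 UMIs (molecular tags that each count 1 captured transcript), at most 20% of them mitochondrial. It also had a UMI for at least 3 of the 6 genes Prox1, Lyve1, Flt4, Mmrn1, Ccl21a and Reln, a UMI for the endothelial adhesion gene Pecam1 or Cdh5, and none for the macrophage gene C1qa or the granulosa cell gene Fshr. By this rule 299 of the 33639 deposited cells were members, and 30523 of the deposited cells met the limits on UMIs and mitochondrial share. The members came from 4 libraries, 1 per group: 116 from control, 83 from AMH, and 50 each from doxorubicin and doxorubicin+AMH. All mice were prepubertal (postnatal day 25), and doxorubicin was given once a week for 2 doses. The agents were vehicle alone (control), 3 mg/kg doxorubicin, the same doxorubicin dose together with 0.75 mg/kg of recombinant human AMH (anti-Müllerian hormone, doxorubicin+AMH), or that dose of AMH by itself. Each library was a pool of 1 ovary from each of 5 mice, taken 4 hours after the last doxorubicin dose and dissociated with papain and collagenase. No genetic alteration is named for any group. The study asked how AMH acts on an ovary exposed to doxorubicin, an anthracycline that poisons topoisomerase II and breaks DNA. With 1 library a group, no difference between groups could be tested against the spread between animals. Groups are therefore described by their values, and the intervals cover counting error only. Values given in fours are listed with control first, then doxorubicin, then doxorubicin+AMH, and AMH last.

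Lymphatic endothelium lines the blind-ended capillaries and valved collecting vessels that drain fluid, proteins and immune cells from tissue. In the ovary these vessels run with the blood vessels of the medulla and cortical stroma and reach the outer layer of growing follicles. Lymphatic identity is set by the transcription factor PROX1, and growth of the vessels is driven mainly by the ligand VEGF-C acting on its receptor VEGFR3, the product of Flt4.

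The label was checked against the level of the 6 genes, and 2 kinds of member were found. The 152 members with all 6 genes present held them at a summed 15998 CPM (UMIs of a gene per 1000000 UMIs of the cells summed), the 41 with 5 genes at 6571 CPM and the 30 with 4 genes at 2739 CPM. The 76 members with exactly 3 genes, just inside the limit, held them at only 120 CPM. They had a median of 65823 UMIs per cell and contributed 42.0% of all member UMIs. The 373 cells with 2 of the 6 genes, just outside the limit, were at 78.9 CPM and a median of 35154 UMIs. Transcripts of other ovarian cells were abundant in the 76 cells, where summed marker levels were 1808 CPM for stroma, 1601 CPM for theca and 2817 CPM for smooth muscle. Medians over the cells were 1190 CPM for stroma, 98.2 for theca and 371 for smooth muscle, the last 2 far below the sums. The 30 members with 4 genes held more theca transcripts, 3491 CPM with a median of 0. Of the 76 cells with 3 genes, 25 were also among the cells with the highest doublet scores from Scrublet, a method that compares each barcode with simulated mixtures of 2 cells. So were 69 of the 373 cells with 2 genes, 6 of the 30 with 4, 5 of the 41 with 5 and 17 of the 152 with 6. The label therefore did not hold for most of the 3-gene cells. Members whose 6 genes summed to at least 2000 CPM, a limit chosen after the data were seen, numbered 200 and are called marker-rich: 72, 37, 40 and 51 in the 4 libraries. They took in 139 of the 152 members with 6 genes and 5 of the 76 with 3. Results below are for the marker-rich cells unless all 299 members are named.

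**Figure D1:**
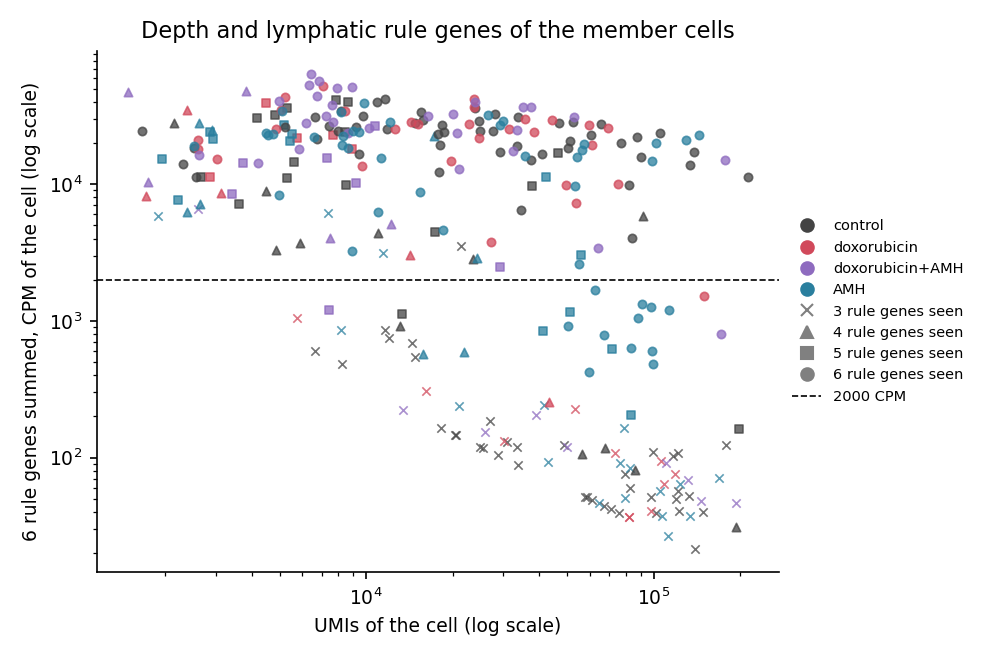
Each point is 1 of the 299 members, with its total UMIs on the x axis and the summed CPM of the 6 rule genes on the y axis (both log scales). The dashed line is the 2000 CPM limit: 200 cells lie above it, and the 73 members under 500 CPM had a median of 79325 UMIs.

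Members made up 1.35% (95% exact binomial interval 1.12 to 1.62) of kept cells in control and 0.971% (0.774 to 1.20) in AMH, and 0.781% (0.580 to 1.03) in doxorubicin and 0.716% (0.532 to 0.943) in doxorubicin+AMH. Marker-rich cells were 0.838% (0.657 to 1.05), 0.578% (0.407 to 0.795), 0.573% (0.410 to 0.779) and 0.597% (0.445 to 0.784). The control share was the highest by both definitions. With cells that hold C1qa or Fshr kept, however, members were 1.94% in control and 1.85% in AMH, and 1.08% in doxorubicin and 0.959% in doxorubicin+AMH, so that control and AMH lay close together. With the rule applied after thinning to 2000 UMIs per cell, members were 0.792%, 0.426%, 0.476% and 0.511%. Among the marker-rich cells the control interval overlapped the other 3. Within the endothelium, counted as members plus 450 blood endothelial cells with at least 3 of Flt1, Kdr, Emcn, Plvap, Ly6c1 and Cd34 and at most 1 lymphatic gene, members were 39.2% (33.6 to 45.0), 27.8% (21.4 to 34.9), 43.1% (33.9 to 52.6) and 52.9% (44.8 to 60.9). That share was higher in both libraries given AMH, although the intervals overlapped within both pairs, AMH with control and doxorubicin+AMH with doxorubicin, and between control and doxorubicin+AMH. The blood endothelial cells of the denominator numbered 180, 130, 66 and 74. A share of captured cells can reflect how vessels came apart during dissociation as well as their number in the ovary, and the 2 cannot be told apart. No member shared its barcode with a member of another library, while 103 barcodes were shared over all pairs of libraries.

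The marker-rich cells summed to 2257778, 801845, 736036 and 1239851 UMIs, with medians of 17578, 14188, 7785 and 9026 UMIs per cell. The deepest single cell held 9.42%, 9.40%, 24.1% and 11.6% of those UMIs, so 1 cell weighs most in doxorubicin+AMH. A count of 0 allows up to 1.33, 3.74, 4.08 and 2.42 CPM (3 counts of the total). Summed markers of other cells differed between the libraries. Theca markers were at 423, 657, 193 and 71.8 CPM, smooth muscle markers at 87.7, 137, 40.8 and 1336 CPM, stromal markers at 147, 360, 220 and 404 CPM, and granulosa cell markers at 104, 408, 202 and 204 CPM. Macrophage markers, of which C1qa is at 0 by the rule, stood at 7.26 to 10.9 CPM and T and NK cell markers at 0 to 1.36 CPM. Markers of blood endothelium, some of which lymphatic vessels share, were at 913, 811, 999.95 and 759 CPM.

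The 6 genes of the rule were high by choice, and their levels are given as a description. Ccl21a (chr4:42772860-42773993, positions here and below in GRCm38) encodes the chemokine that draws CCR7-bearing dendritic cells and T cells into lymphatic vessels. It stood at 11143 CPM in control and 11460.2 in AMH, and at 15766 in doxorubicin and 15712 in doxorubicin+AMH. Its level is uncertain, because the predicted gene Gm21541 is 99.3% identical over 870 bases and held a further 204, 104, 80 and 119 UMIs in the members. Mmrn1 (chr6:60924976-60989378), a secreted multimerin, stood at 2116, 1952, 2399 and 1819.6 CPM. Both doxorubicin libraries lay above both others for Ccl21a. Prox1 (chr1:190118035-190170714), whose locus an antisense gene, Prox1os, overlaps, was at 1925 (1868 to 1983) CPM in control and 1344 (1280.0 to 1409.8) in AMH, and at 1094 (1023 to 1169) in doxorubicin and 1715 (1621 to 1812) in doxorubicin+AMH, highest in control. In doxorubicin+AMH a single cell held 53.1% of the Prox1 UMIs, and the cell medians were 1608, 709, 915 and 847 CPM. Reln (chr5:21884454-22344702), a secreted glycoprotein of lymphatic endothelium, was at 1144, 1019, 1181 and 1221 CPM. Flt4 (chr11:49609263-49652739) was at 739, 738, 747 and 553 CPM, lowest in AMH. Lyve1 (chr7:110850607-110863239), the hyaluronan receptor typical of initial lymphatics, was at 993, 822, 697 and 819 CPM, again highest in control.

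**Figure D2:**
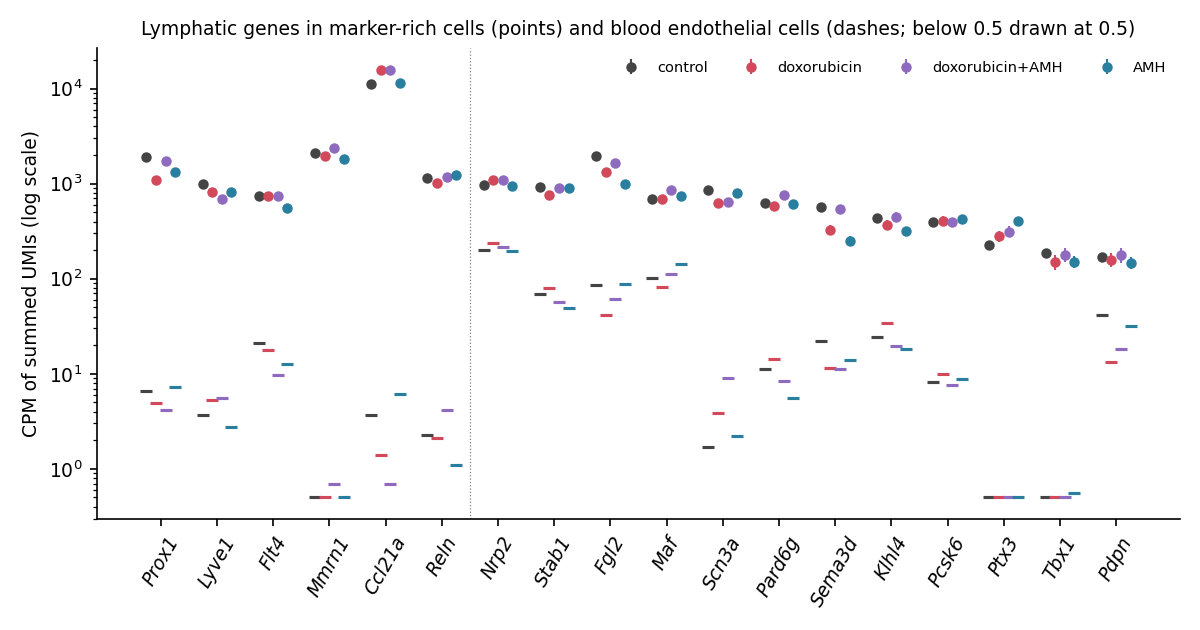
CPM (log axis) of the 6 rule genes and other lymphatic genes in the marker-rich cells, 1 point per library; bars are 95% exact Poisson intervals for counting error, and short dashes are the blood endothelial cells. The 4 libraries lie close together for most genes, with Ccl21a between 11143 and 15766 CPM.

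Of the 6 rule genes, Lyve1 was the one most often absent from the marker-rich cells. Over the 200 cells its median was 440 CPM and 52 cells had no Lyve1 UMI, against 5 to 13 cells for each of the other 5 genes. The median was 14241 CPM for Ccl21a, 2061 for Mmrn1, 1060 for Prox1, 931 for Reln and 728 for Flt4. After each cell was thinned to 2000 UMIs, which left out 1, 1, 2 and 2 cells, Lyve1 was present in 56.3%, 61.1%, 60.5% and 51.0% of cells and Ccl21a in 91.5%, 97.2%, 94.7% and 93.9%. Granulosa cells, which should lack both, gave 0.0994 to 0.519% for Lyve1 and 0.493 to 1.93% for Ccl21a at the same thinned depth. These were kept cells with an Fshr UMI, at least 3 of 5 granulosa cell markers, and no UMI for C1qa, Pecam1 or Cdh5. Leaving out cells with Pecam1 or Cdh5 can lower these shares, so they are not a full background level. Across the 200 cells, which share libraries, differ in depth and were chosen on these same genes and their sum, so that the choice itself shapes the values, the level of Lyve1 went with that of Reln (Spearman's rho 0.49) and less with that of Ccl21a (0.32), whereas Prox1 and Ccl21a gave a rho of -0.02. Ccl21a and Mmrn1 gave 0.43. Prox1 went with Foxc2, a transcription factor of valves and collecting vessels (0.36), and with the claudin Cldn11 (0.36). Foxc2 had a UMI in only 57 of the 200 cells and Cldn11 in 40, so most cells tie at 0 for both.

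Genes linked to lymphatic endothelium that the rule did not use were present in all 4 libraries, most of them within a narrow range. Nrp2, the co-receptor for VEGF-C, stood at 959 CPM in control and 956 in AMH, and at 1082 in doxorubicin and 1081 in doxorubicin+AMH. Stab1, a scavenger receptor, was at 917, 763, 893 and 902 CPM and the mannose receptor Mrc1 at 277, 367, 299 and 427 CPM. Maf, a transcription factor of lymphatic endothelium, was at 692, 692, 857 and 749 CPM, and the venous and lymphatic nuclear receptor Nr2f2 at 641, 634, 589.6 and 605 CPM. Pdpn, the surface glycoprotein podoplanin, was at 170.1, 158, 177 and 147 CPM. Ackr2, a decoy receptor that clears inflammatory chemokines, was at 39.4, 39.9, 54.3 and 35.5 CPM, and the T cell survival cytokine Il7 at 82.8, 59.9, 82.9 and 72.6 CPM. Larger gaps were seen for Fgl2, at 1972, 1334, 1644 and 992 CPM, and for the guidance ligand Sema3d, at 570.0, 324, 548 and 252 CPM: both were lowest in AMH. Of 22 such genes 20 passed the filter (50 CPM or more on average across libraries). Their median log2 ratio was -0.18 for doxorubicin over control and 0.25 for doxorubicin+AMH over AMH. For AMH it had opposite signs in the 2 pairs: -0.26 for AMH over control, and 0.24 for doxorubicin+AMH over doxorubicin. In the last 17 of 20 genes were above 0, beside 2135 of all 3876 genes. With each cell weighted equally the 4 medians were, in this order, -0.07, 0.39, -0.48 and -0.06, with 9 of 20 genes above 0 in the last.

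Growth factor receptors and valve genes were next examined. Kdr, the main receptor for VEGF-A, was at 553, 434, 610.0 and 455 CPM, and the angiopoietin receptor pair Tek and Tie1 at 181, 136, 228 and 98.4 CPM and 275, 206, 255 and 165 CPM. Both receptors were lower in doxorubicin than in control and higher in doxorubicin+AMH than in AMH. Calcrl, the adrenomedullin receptor, was at 584, 412, 413 and 357 CPM. Vegfc itself was at 5.76, 2.49, 4.08 and 4.84 CPM and did not pass the filter. Foxc2 stood at 57.6, 18.7, 43.5 and 21.0 CPM and did not pass the filter: its values in doxorubicin and in AMH lay below those in control and doxorubicin+AMH. Nfatc1, its partner in valve formation, was at 432, 259, 306 and 268 CPM, and fibronectin, encoded by Fn1 and laid down in valve leaflets, at 654, 333, 486 and 388 CPM. Both were highest in control. The 15 of 22 valve and collecting vessel genes that passed had a median log2 ratio of -0.44 for doxorubicin over control and 0.21 for doxorubicin+AMH over AMH. It was -0.44 for AMH over control and 0.21 for doxorubicin+AMH over doxorubicin, with 13 of 15 genes above 0 in the last. Equal weights gave -0.28, 0.35, -0.51 and -0.06 for the 4 in this order, with 6 of 15 genes above 0 in the last. Over all 3876 genes that passed the medians were -0.05, 0.06, -0.08 and 0.04, with 2135 genes above 0 in the last.

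Beside the blood endothelial cells of the same ovaries, the lymphatic cells differed in many genes that played no part in either rule. Both sets were chosen on transcripts, so this is a description. Of 4374 genes compared, 309 (7.06%) were at least 2-fold higher in lymphatic cells in all 4 libraries and 195 (4.46%) at least 2-fold lower. Ranked by the smallest of the 4 ratios, the first gene was Scn3a, a voltage-gated sodium channel subunit, at 854, 626, 643 and 800.1 CPM in lymphatic cells and 1.71, 3.87, 9.03 and 2.22 CPM in blood endothelial cells. Next was the polarity gene Pard6g, at 632, 584, 758 and 619 CPM against 11.1, 14.4, 8.34 and 5.54 CPM. Ptx3, a soluble pattern recognition protein, stood at 225, 282, 312 and 402 CPM in lymphatic cells and had no UMI in blood endothelial cells, where 0 allows 0.853, 1.05, 2.08 and 1.66 CPM. Pcsk6, Apba2, Mrc1, Fgf13, Tbx1, Tc2n and Ntn1 completed the 10 highest. Tbx1, a transcription factor needed for lymphatic development, stood at 188, 148, 178 and 149 CPM. On the other side, the transcription factor Mecom was at 404, 441, 325 and 309 CPM in blood endothelial cells and 0.886, 0, 0 and 0 CPM in lymphatic cells, where 0 allows 3.74, 4.08 and 2.42 CPM, and the efflux pump gene Abcb1a at 293, 371, 309 and 213 CPM against 0.443, 1.25, 5.43 and 1.61 CPM. The ABCB1 pumps carry doxorubicin out of cells. Cadm1, Samd12, Rgs5, C3, Ly6a, Rundc3b, Kirrel3 and Nrp1 completed the 10 lowest. Rgs5 is a gene of pericytes, which wrap blood capillaries, and is 1 of the 5 smooth muscle and pericyte markers. The blood endothelial cells had no limit like that of the marker-rich cells. They held these 5 markers at 1525, 1206, 1990 and 932 CPM, against 87.7, 137, 40.8 and 1336 in the lymphatic cells, and stromal markers at 1980, 1360, 1926 and 2349 CPM, against 147, 360, 220 and 404. The part of these transcripts in the genes lower in lymphatic cells was not tested.

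**Figure D3:**
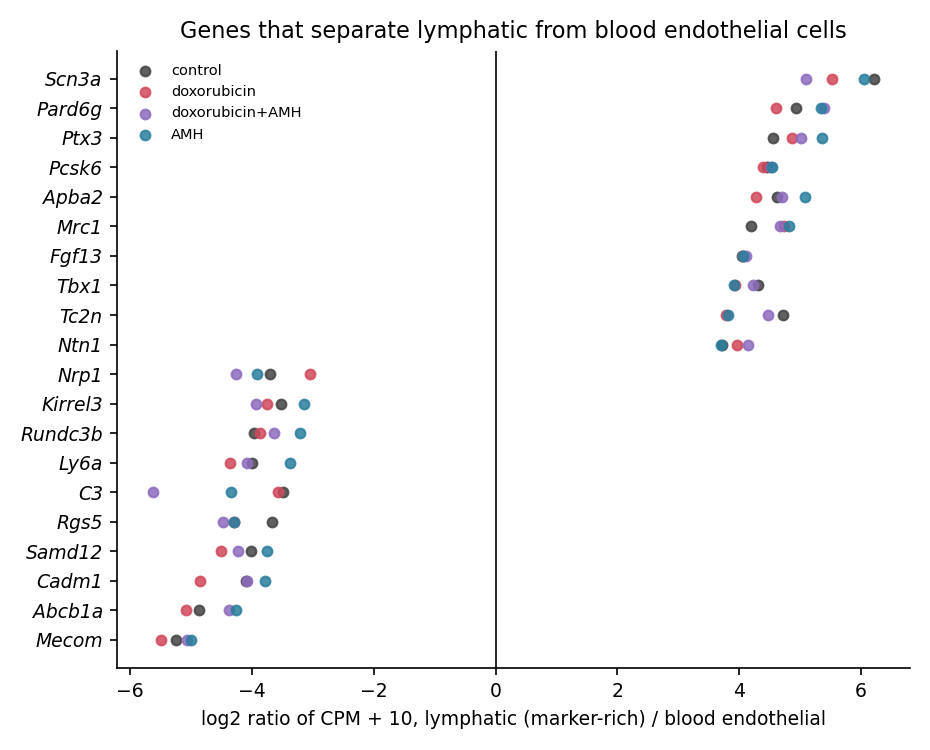
Log2 ratio of marker-rich lymphatic over blood endothelial cells (pseudocount 10 CPM) for the 10 genes highest and the 10 lowest in the lymphatic cells, 1 point per library. Scn3a lies highest, between 5.10 and 6.21.

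Doxorubicin was compared in 2 pairs of libraries that have none in common: doxorubicin with control, and doxorubicin+AMH with AMH. All ratios are log2 of (CPM + 10). Of 3876 genes, 72 (1.86%) differed at least 2-fold between doxorubicin and control, 41 (1.06%) of them higher and 31 (0.8%) lower with doxorubicin. Between doxorubicin+AMH and AMH 77 (1.99%) differed, 39 (1.01%) higher and 38 (0.98%) lower. Targets of p53, the transcription factor that DNA breaks activate, were among the genes higher in both doxorubicin libraries. Cdkn1a, which encodes the cell cycle inhibitor p21, stood at 62.5 (52.6 to 73.7) CPM in control and 51.6 (39.8 to 65.9) in AMH, and at 231 (199 to 266) in doxorubicin and 144 (118 to 174) in doxorubicin+AMH. The 2 libraries with doxorubicin lay above the 2 without, with intervals apart, and the log2 ratios were 1.73 and 1.32. Of the 30 p53 targets listed, 10 passed the filter. Their median ratio was 0.71 in the first pair, with 7 of 10 above 0 and 2 at least 2-fold higher, and 0.51 in the second, with 9 of 10 above 0 and 1 at least 2-fold higher. The median over all genes was -0.05 and 0.06, with 1701 and 2260 of 3876 above 0. The filter acts on the mean of the 4 libraries, so a gene can pass through the library where it is high, and such counts describe the listed genes and support nothing further.

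Several other p53 targets were higher in both doxorubicin libraries than in both others. Bax, which opens the mitochondrial outer membrane in apoptosis, was at 131 CPM in control and 129 in AMH, and at 249 in doxorubicin and 197 in doxorubicin+AMH. Rps27l, a ribosomal protein-like gene, was at 257 CPM in control and 287 in AMH, and at 453 in doxorubicin and 454 in doxorubicin+AMH. The ratios were 0.88 and 0.57 for Bax, and 0.79 and 0.64 for Rps27l. Ei24 was at 44.7, 96.0, 59.8 and 36.3 CPM, and Mdm2, the ligase that degrades p53, at 56.7, 92.3, 63.9 and 46.0 CPM. Phlda3, an inhibitor of AKT, and the cyclin gene Ccng1 did not pass the filter, since both were low in control and AMH. Phlda3 stood at 12, 66.1, 66.6 and 12.9 CPM and Ccng1 at 12.8, 47.4, 46.2 and 9.68 CPM. Gdf15, a stress cytokine, was at 206, 636, 223 and 152 CPM, but 1 cell held 60.8% of its UMIs in the doxorubicin library. Not every target was higher: Plk2 was at 454, 414, 437 and 307 CPM, Btg2 at 283, 252, 209 and 287 CPM and Sesn1 at 93.5, 84.8, 115 and 102 CPM.

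The promoters of Cdkn1a and Bax are shown because these genes were higher in both doxorubicin libraries. Each sequence is the 250 bases before the transcription start in RefSeq (GRCm38.p6), 5′ to 3′ on the strand of the gene: chr17:29090729-29090978 (plus strand) for Cdkn1a and chr7:45466899-45467148 (minus strand) for Bax. Capitals mark matches to the p53 half-site consensus, searched on both strands. Cdkn1a has matches beginning 73 and 51 bases before the start, and Bax has 1 beginning 201 bases before it.
Cdkn1a: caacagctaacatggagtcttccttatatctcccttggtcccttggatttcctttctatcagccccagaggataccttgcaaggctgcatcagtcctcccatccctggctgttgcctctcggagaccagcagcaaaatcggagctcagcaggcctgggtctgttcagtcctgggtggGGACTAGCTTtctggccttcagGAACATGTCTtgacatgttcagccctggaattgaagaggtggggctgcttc
Bax: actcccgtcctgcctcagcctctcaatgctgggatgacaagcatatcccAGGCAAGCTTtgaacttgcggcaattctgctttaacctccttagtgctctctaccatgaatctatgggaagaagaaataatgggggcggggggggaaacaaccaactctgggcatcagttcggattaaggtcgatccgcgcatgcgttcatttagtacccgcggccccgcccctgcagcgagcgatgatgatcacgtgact
A match was found in 8.2% of the promoters of 27025 genes and in 11 of the 22 listed p53 targets that have an entry. A match of letters is a description and does not show that p53 binds there.

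Depth and single cells bear on Cdkn1a. With each cell weighted equally its level was 55.9, 167, 80.5 and 53.7 CPM, and the ratio in the second pair was 0.51 against 1.32 from summed UMIs. After thinning to 2000 UMIs per cell, Cdkn1a was present in 8.45%, 25.0%, 13.2% and 12.2% of the lymphatic cells, and in 2.28%, 5.67%, 3.98% and 3.48% of granulosa cells. Without thinning the shares of lymphatic cells were 44.4%, 54.1%, 42.5% and 41.2%. Phlda3 was present in 4.23%, 13.9%, 15.8% and 2.04% of thinned lymphatic cells. The p53 median was 0.52 to 0.86 in the first pair and 0.32 to 0.55 in the second over the alternatives tried, in which the genes that passed could differ. Over the same 10 genes with each cell weighted equally it was 0.56 and 0.26. Over all 299 members it was 0.43 and 0.23. In the blood endothelial cells, where 7 of the targets passed, it was 0.28 and 0.10, and Cdkn1a was at 67.1, 145, 75.1 and 65.4 CPM. Whether lymphatic and blood endothelial cells differ in this was not tested.

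**Figure D4:**
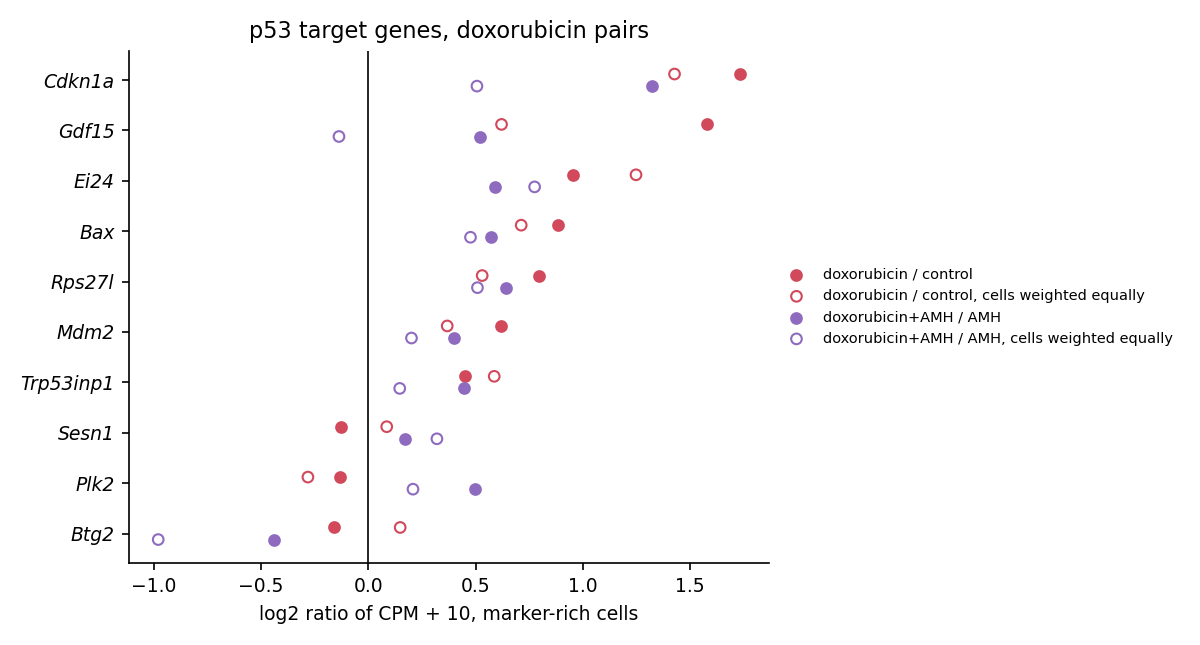
Log2 ratios (pseudocount 10 CPM) of p53 target genes in the marker-rich cells for doxorubicin over control and doxorubicin+AMH over AMH; filled points are from summed UMIs and open points weight each cell equally. Cdkn1a lies at 1.73 and 1.32, and most targets lie above 0 in both pairs.

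Beyond the p53 list, genes were named by the ratio nearer to 0 of the 2 pairs, the 8 highest and the 8 lowest. After Cdkn1a, the highest was Pvt1, a long non-coding RNA next to Myc, at 46.5 CPM in control and 44.4 in AMH, and at 139.7 in doxorubicin and 109 in doxorubicin+AMH. Its ratios were 1.41 and 1.13, and the second was 0.24 without the cells high in markers of other cell types and 0.27 without the highest Scrublet scores. Exoc4, a subunit of the exocyst that docks secretory vesicles, was at 268 CPM in control and 242 in AMH, and at 526 in doxorubicin and 452 in doxorubicin+AMH. The kinase gene Camk1d was at 200.2 CPM in control and 170.2 in AMH, and at 343 in doxorubicin and 351 in doxorubicin+AMH. For Exoc4 and Camk1d both doxorubicin libraries lay above both others. With equal weights the second ratio of Exoc4 was 0.54 and the first of Camk1d 0.48. Prkar2b, a regulatory subunit of protein kinase A, was at 59.4, 153, 67.9 and 33.9 CPM, and Atpaf2, a mitochondrial ATP synthase assembly factor, at 26.6, 58.6, 99.2 and 57.3 CPM. With cells that hold C1qa or Fshr kept, the ratios of Prkar2b were 1.90 and 0.17, against 1.24 and 0.83 without them and 0.82 and 0.48 with equal weights, and those of Atpaf2 were 0.36 and 0.24. The other 2 were the theca enzymes Cyp17a1 and Cyp11a1, for which 1 cell held 99.2% and 95.4% of the UMIs in the doxorubicin library.

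Among the genes lower with doxorubicin, Angpt2 encodes angiopoietin-2, a ligand of TIE2 that lymphatic vessels need to mature. It stood at 419 CPM in control and 397 in AMH, and at 264 in doxorubicin and 251 in doxorubicin+AMH, with ratios of -0.65 and -0.64, and both doxorubicin libraries lay below both others. With each cell weighted equally the ratios were -0.38 and -0.09. In blood endothelial cells it was at 28.4, 16.5, 20.8 and 19.95 CPM. Lrmda was at 163 CPM in control and 146 in AMH, and at 87.3 in doxorubicin and 73.4 in doxorubicin+AMH, but its second ratio went from -0.90 to -0.045 with equal weights and to -0.20 without the deepest cell of each library. The heat shock protein gene Hsph1 was at 131, 78.6, 78.8 and 127 CPM, and Gclc, the catalytic subunit of the first enzyme of glutathione synthesis, at 149, 98.5, 70.6 and 151 CPM. Id2, an inhibitor of basic helix-loop-helix factors, was at 152, 98.5, 124 and 209.7 CPM. Sh2d4b, the Polycomb ubiquitin ligase gene Rnf2 and the histone chaperone gene Anp32e had ratios of -0.70 and -0.82, -0.62 and -0.63, and -0.62 and -1.05. The first ratio of Sh2d4b was -0.19 with equal weights, which put the second of Rnf2 at -1.17 and those of Gclc at -0.98 and -1.66. With cells that hold C1qa or Fshr kept, the second ratio of Anp32e was -0.27 and the first of Id2 was -0.22.

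AMH was likewise compared in 2 pairs with no library in common: AMH with control, and doxorubicin+AMH with doxorubicin. In the first pair 91 genes (2.35%) differed at least 2-fold, 34 (0.877%) higher and 57 (1.47%) lower with AMH. In the second 90 (2.32%) did so, 32 (0.826%) higher and 58 (1.5%) lower. Smooth muscle markers in these cells, at 87.7, 137, 40.8 and 1336 CPM, were highest in AMH, where 4 of 51 cells reached 2000 CPM or more. The medians over cells were 11.4, 39.8, 36.1 and 37.6 CPM, and the markers' part in the AMH ratios was not tested. Genes induced by interferon were lower with AMH alone. Isg15, a ubiquitin-like modifier, stood at 209 (190.2 to 228) CPM in control and 82.3 (67.1 to 99.9) in AMH, and at 288 (252 to 328) in doxorubicin and 133 (108 to 162) in doxorubicin+AMH. Both AMH libraries lay below both others, with ratios of -1.24 and -1.06, the first being -0.83 with each cell weighted equally. Of 27 genes listed for interferon and antigen presentation, 14 passed the filter. None of the 14 was above 0 in the first pair, beside 1515 of all 3876 genes. The median of the 14 was -0.66, beside -0.08 over all genes, and 4 were at least 2-fold lower. In the second pair the median was -0.09, and it was 0.30 with each cell weighted equally, so the list gave no steady direction for AMH given with doxorubicin.

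Ifi27l2a, another interferon-induced gene, was at 486 CPM in control and 132 in AMH, and at 662 in doxorubicin and 367 in doxorubicin+AMH, so that it was lowest in AMH. Ifi44 was at 90.4, 117, 46.2 and 40.3 CPM, with ratios of -0.996 and -1.18, the second being -0.46 with equal weights. Stat2, which carries the type I interferon signal to DNA, was at 70.4, 63.6, 59.8 and 27.4 CPM. Among the antigen presentation genes, the class I heavy chain H2-K1 was at 526, 412, 564 and 298 CPM, its close paralogue H2-D1, between which reads may be split, at 649.8, 651, 747 and 394 CPM, and the light chain B2m at 748, 797, 839.6 and 582 CPM. The antiviral membrane protein gene Ifitm3 was at 1285, 1500.3, 1333 and 801 CPM. Stat2 and these 4 were each lowest in the AMH library. Irf1, a transcription factor of the same response, was at 70.0, 67.3, 67.9 and 67.8 CPM, with little spread. Iigp1 was at 192, 61.1, 61.1 and 51.6 CPM and high only in control, where 1 cell held 37.0% of its UMIs. The comparison of doxorubicin+AMH with AMH shares the AMH library: in it 13 of the 14 genes were above 0, beside 2260 of all 3876 genes, with a median of 0.50. For doxorubicin over control the median was 0.03.

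The promoters of Isg15, Ifit1 and Stat2 are shown to let the shared motif be seen in genes of this list. They are the 250 bases before the start in RefSeq (GRCm38.p6), 5′ to 3′ on the strand of the gene: chr4:156200819-156201068 (minus strand), chr19:34640639-34640888 (plus strand) and chr10:128270248-128270497 (plus strand). Capitals mark matches on either strand to GAAANNGAAA, the core of the interferon-stimulated response element. The 3 matches of Isg15 lie in 1 run of capitals, in which neighbouring matches share bases, and begin between 78 and 66 bases before the start. The 2 of Ifit1 begin 104 and 85 bases before it, and that of Stat2 begins 222 bases before it.
Isg15: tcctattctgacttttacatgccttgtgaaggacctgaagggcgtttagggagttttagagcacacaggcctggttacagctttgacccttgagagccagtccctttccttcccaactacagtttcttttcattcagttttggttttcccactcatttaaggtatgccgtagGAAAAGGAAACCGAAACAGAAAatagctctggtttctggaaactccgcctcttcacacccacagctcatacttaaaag
Ifit1: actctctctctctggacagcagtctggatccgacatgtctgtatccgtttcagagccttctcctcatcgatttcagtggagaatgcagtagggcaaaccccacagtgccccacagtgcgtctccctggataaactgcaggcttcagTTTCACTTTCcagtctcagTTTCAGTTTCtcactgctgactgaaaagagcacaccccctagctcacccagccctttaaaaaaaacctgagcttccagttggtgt
Stat2: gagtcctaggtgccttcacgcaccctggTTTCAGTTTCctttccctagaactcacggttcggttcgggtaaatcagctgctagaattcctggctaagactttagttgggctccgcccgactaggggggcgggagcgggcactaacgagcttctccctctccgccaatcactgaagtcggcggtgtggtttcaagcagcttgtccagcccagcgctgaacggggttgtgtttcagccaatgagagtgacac
The motif was found in 3.46% of the promoters of 27025 genes and in 10 of the 19 listed genes that have an entry. Ifit1, with a match pair, was at 77.1, 31.2, 38.0 and 24.2 CPM and did not pass the filter.

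Median ratios of the interferon list for AMH over control lay between -0.75 and -0.55 over the alternatives tried, and over all 299 members the value was -0.62. Isg15 was present in 33.8%, 33.3%, 15.8% and 14.3% of lymphatic cells thinned to 2000 UMIs and in 1.04%, 1.36%, 0.497% and 0.484% of granulosa cells. In blood endothelial cells, where 16 genes of the list passed, the median was -0.44 for AMH over control and Isg15 was at 116, 112, 90.3 and 62.6 CPM.

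**Figure D5:**
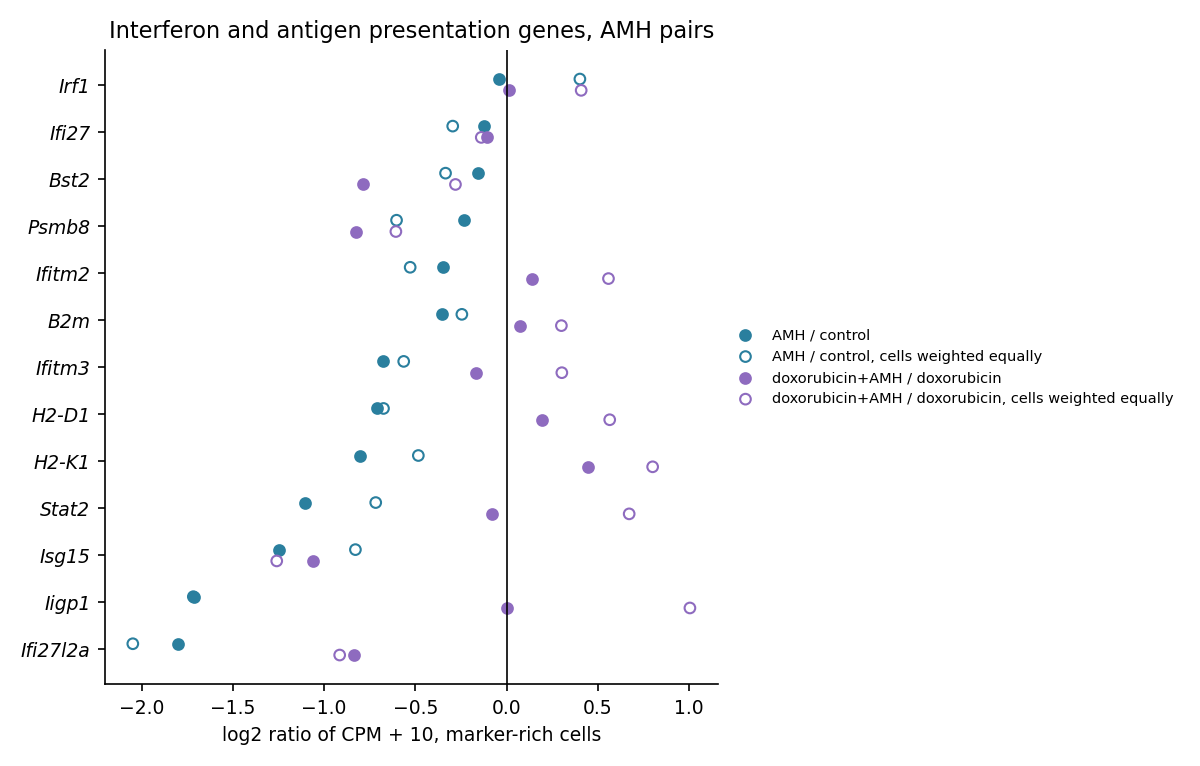
Log2 ratios (pseudocount 10 CPM) of 13 of the 14 interferon and antigen presentation genes that passed the filter, in the marker-rich cells, for AMH over control and doxorubicin+AMH over doxorubicin; filled points are from summed UMIs and open points weight each cell equally. Isg15 lies at -1.24 and -1.06, while in the second pair other genes lie on both sides of 0.

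Plat, which encodes tissue plasminogen activator, the protease that turns plasminogen into plasmin, was also among the 8 genes lowest with AMH. It stood at 192 (175 to 211) CPM in control and 46.0 (34.8 to 59.6) in AMH, and at 192 (163 to 225) in doxorubicin and 85.6 (65.8 to 109.5) in doxorubicin+AMH. Both AMH libraries lay below both others, with ratios of -1.85 and -1.08, the second being -0.41 with each cell weighted equally. Among the 8 were also 4 genes of steroid synthesis: Cyp11a1, Cyp17a1, Fdx1 and Hsd3b1. Without the cells of the highest Scrublet scores, the ratios of AMH over control turned to 0.90 for Fdx1 and 1.61 for Hsd3b1. Cyp11a1 was at 175, 298, 32.6 and 1.61 CPM and Cyp17a1 at 91.2, 161, 25.8 and 0 CPM. A count of 0 allows 2.42 CPM in AMH. Both enzymes are among the 4 theca markers, whose sum in the same cells was 423, 657, 193 and 71.8 CPM, and 1 cell of the doxorubicin library held 95.4% of its Cyp11a1 and 99.2% of its Cyp17a1 UMIs. The part of theca transcripts in the result was not tested.

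The 8 genes highest with AMH had smaller ratios. Adgrl3, an adhesion receptor gene, was at 33.2, 23.7, 57.1 and 87.9 CPM, but a single cell held 83.3% of its UMIs in doxorubicin+AMH. Dcn, a matrix proteoglycan gene of stroma, was at 23.5, 71.1, 105 and 96.0 CPM, with 90.9% in 1 cell of doxorubicin+AMH and stromal markers of 147, 360, 220 and 404 CPM beside it. The second ratio of Dcn was 0.05 with cells that hold C1qa or Fshr kept. Ezh2, the methyltransferase of Polycomb complex PRC2, was at 60.7, 31.2, 59.8 and 90.3 CPM, and Hpf1, a cofactor of PARP1 in DNA repair, at 43.8, 38.7, 70.6 and 66.9 CPM. The heat shock gene Hspa1b, a near copy of Hspa1a, the proprotein convertase gene Pcsk5, Pld5 and Atpaf2 had ratios of 0.51 to 1.13 over the 2 pairs. With equal weights the second ratio of Hspa1b was 0.16, and the first was 0.31 for Hpf1 and 0.36 for Pld5.

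Receptors of AMH were seen in few of the cells or at modest levels. Amhr2, the type II receptor specific for AMH, was at 3.1, 7.48, 6.79 and 17.7 CPM and did not pass the filter. In AMH, where it was highest, it was seen in 7 of 51 cells. Amhr2 is also 1 of the 5 granulosa cell markers, whose sum in the marker-rich cells was 104, 408, 202 and 204 CPM. The part of granulosa cell transcripts in its level was not tested. The type I receptor gene Acvr1, which AMH shares with bone morphogenetic proteins, was at 93.9, 76.1, 101 and 63.7 CPM, and Bmpr1a at 12, 19.95, 16.3 and 33.1 CPM. Of 12 listed targets of bone morphogenetic protein signalling only 4 passed, with medians of 0.03 for AMH over control and 0.02 for doxorubicin+AMH over doxorubicin. Id1, the best known of them, was at 339, 293, 208 and 359 CPM.

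Stress and cell cycle genes were also examined. All 23 immediate early and dissociation stress genes passed, and their median was -0.14 and -0.06 in the doxorubicin pairs and -0.47 and -0.28 in the AMH pairs. With each cell weighted equally these were 0.01, -0.31, -0.17 and -0.43. Over all 299 members the 4 medians were -0.07, 0.09, -0.04 and 0.02, so the lower values with AMH were not seen there from summed UMIs. With equal weights the AMH medians were -0.07 and -0.30. Fos was at 2416, 1682, 1458 and 1665 CPM, Egr1 at 1149, 851, 1064 and 776 CPM and Atf3 at 551, 407, 270.4 and 320.2 CPM; these genes also respond to the dissociation itself, and the 2 sources cannot be told apart. Of 26 cell cycle genes 11 passed. For AMH over control 9 of the 11 were above 0, beside 1515 of all 3876 genes, and the median was 0.52. For doxorubicin+AMH over doxorubicin the median was 0.15. In the doxorubicin pairs it was -0.11 and -0.27, and with each cell weighted equally 0.11 and -0.28. At least 2-fold lower were 2 of the 11 genes for doxorubicin+AMH over AMH, beside 0.98% of all genes, and 2 for doxorubicin+AMH over doxorubicin, beside 1.5%. Both comparisons hold the doxorubicin+AMH library. Over all 299 members the AMH medians were -0.05, with 5 of 11 genes above 0 beside 1310 of all 3827, and -0.09. The higher value for AMH over control was thus not seen there from summed UMIs. With each cell weighted equally the first was 0.33. Top2a, the topoisomerase that doxorubicin poisons, was at 92.6, 78.6, 77.4 and 152 CPM, in 18, 5, 8 and 16 cells. Mki67 was at 61.1, 52.4, 65.2 and 75 CPM, in 21, 9, 9 and 12 cells, so the cell cycle medians rest in part on few cells. These cell counts are without thinning, and a UMI does not show that a cell was dividing. Claudin-5, encoded by Cldn5 and a seal of endothelial junctions, was at 1114, 1061, 1129 and 689 CPM and lowest in AMH. The 16 of 20 junction genes that passed had medians of -0.13 and 0.05 in the doxorubicin pairs and -0.27 and 0.07 in the AMH pairs. The last was -0.04 with each cell weighted equally and -0.30 over all 299 members, where 17 genes passed.

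Over all 299 members the same naming rule gave partly other genes, and several of these were low in the marker-rich cells. Of 3827 genes, 85 (2.22%) differed at least 2-fold between doxorubicin and control, 35 (0.915%) between doxorubicin+AMH and AMH, 111 (2.9%) between AMH and control and 72 (1.88%) between doxorubicin+AMH and doxorubicin. Flt1, a receptor of blood endothelium, was at 293, 341, 118 and 78.7 CPM in the 299 members and 6.2, 11.2, 13.6 and 4.03 CPM in the marker-rich cells. It was named as lower with AMH in the first set and did not pass the filter in the second. Nrp1, Esam and Abcb1a, all expressed in blood endothelium, were named with it. Fabp4, a fatty acid carrier of capillary endothelium, was at 68.8, 3.96, 31.4 and 171 CPM in the 299 members, but its ratio for doxorubicin+AMH over AMH changed from -2.12 to 0.89 in the marker-rich cells. Named in both sets as lower with AMH were Isg15, at 129.6, 193, 77.0 and 37.2 CPM over the 299 members, and Cyp17a1. Ifi27l2a, Col23a1, Pparg and Sulf2 were named as higher with doxorubicin over the 299 members, with ratios of 0.66 to 1.18, beside Gdf15, Mxra8 and Frmd5. For Sulf2 the ratio of doxorubicin+AMH over AMH was 0.66, but -0.04 with cells that hold C1qa or Fshr kept and -0.0016 in the marker-rich cells, so it had no steady direction. That of Frmd5 was 0.68, and -1.20 in the marker-rich cells.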

How the data were processed

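Single-cell matrices for 4 libraries were deposited as raw UMI counts, which Cell Ranger 7.0.0 made, per the file headers. Build mm10, Seurat 4.1.0 and R 4.2.0 are named in the submitters' processing notes. Whether intronic reads were counted is not given in the sources used here. Groups follow the labels. The members and the gene lists were chosen with earlier results of these data known, and the marker-rich limit after these cells were seen.

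Member counts were summed per library and scaled to CPM over the 32285 gene IDs, merged to 32245 symbols, with 95% exact Poisson intervals. Shares have 95% exact (Clopper-Pearson) binomial intervals. All intervals and limits cover counting error only. Ratios are log2 of CPM plus a pseudocount of 10, for genes that averaged 50 CPM or more across libraries, which understates the ratios of low genes. A gene was called when it differed at least 2-fold. No model across genes was fitted, because each group has 1 library, and no p-value is given. Named genes were the rule genes, the list members, the 10 highest and 10 lowest against blood endothelial cells, and the 8 highest and 8 lowest in both pairs of each treatment, ranked by the ratio nearest to 0; a few genes that these rules name are not reported here. Doublets were scored with Scrublet in scanpy 1.11.5 (0.8% per 1000 cells) and kept except in an alternative. The ratio step was tested on simulated counts. They were drawn with no spread between cells, so that test does not cover genes whose UMIs lie mostly in 1 cell. Coordinates are from GENCODE vM21 (GRCm38), promoters from RefSeq (GRCm38.p6). Other tools were Python 3.11.15, numpy 2.4.6, scipy 1.17.1, pandas 2.3.3 and matplotlib 3.10.9. Alternatives changed the UMI, mitochondrial and rule gene limits, the C1qa and Fshr condition, doublets, scaling, pseudocount, low-value filter and the weight of each cell.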

Additional observations from a re-analysis of the deposited data

Results flagged for a closer look

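Only list members and named genes that passed the filter were searched, and not all genes. For 3 of them in the marker-rich lymphatic cells the doxorubicin ratio had opposite signs in the 2 pairs of libraries, past 2-fold in each. Genes were kept only where both signs also held with each cell weighted equally. With 1 library per group this difference between pairs was not tested. Cyyr1, a gene also found in blood endothelium, stood at 163, 67.3, 76.1 and 20.2 CPM (libraries ordered as in the report), and its log2 ratio in the first pair minus that in the second was -2.67. A single cell held 61.1% of its UMIs in the doxorubicin library. Frmd5 stood at 36.8, 157, 36.7 and 97.6 CPM, with a difference of 3.04. Over all 299 members the ratios of Frmd5 were 0.67 and 0.68, of 1 sign. There the first kept its sign in 11 of 11 alternatives and the second in 8 of 11. The marker-rich limit, chosen after the data were seen, was 1 of the alternatives that turned the second. Igfbp5, which encodes a secreted binding protein for insulin-like growth factors, stood at 203, 72.3, 280.0 and 99.2 CPM, with a difference of -2.78, and 1 cell held 78.9% of its UMIs in the AMH library. Over all 299 members the ratios were -0.34 and 0.14 for Cyyr1 and -1.06 and 0.85 for Igfbp5.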

How the results depend on the processing

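No paired analysis was possible because each group has 1 library, and for the same reason no replicate could be left out. For all 299 members, the share of kept cells was 0.908% in control and 0.761% in AMH with at least 4 rule genes required. It was 1.94%, 1.08%, 0.959% and 1.85% (in the order of the report) with C1qa and Fshr ignored, 0.792%, 0.426%, 0.476% and 0.511% with the rule applied after thinning to 2000 UMIs, and 0.838%, 0.578% and 0.597% in control, doxorubicin and AMH for marker-rich cells. Thinning left fewer transcripts to meet the rule; the cause of the other shifts was not tested.

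The number of genes past 2-fold among the 299 members followed the processing. For doxorubicin over control (85) it was 27 with C1qa and Fshr ignored, 36 with a pseudocount of 50, 200 without the low-value filter and 30 with cells weighted equally. For doxorubicin+AMH over AMH (35) it was 125 with at least 4 rule genes, 114 with C1qa and Fshr ignored, 54 without the highest Scrublet scores, 7 with a pseudocount of 50, 223 without the filter, 87 with cells weighted equally and 77 in marker-rich cells. For AMH over control (111) it was 207, 39, 370 and 54 with at least 4 rule genes, a pseudocount of 50, no filter and equal weights. For doxorubicin+AMH over doxorubicin (72) it was 27, 34 and 221 with C1qa and Fshr ignored, a pseudocount of 50 and no filter. In marker-rich cells the counts for a pseudocount of 50 and no filter were 30 and 272 for doxorubicin over control (72), 32 and 273 for doxorubicin+AMH over AMH (77), 39 and 238 for AMH over control (91), and 33 and 357 for doxorubicin+AMH over doxorubicin (90). The first was 116 with C1qa and Fshr ignored, the second 157 and the last 140 with cells weighted equally. A larger pseudocount shrinks ratios and no filter admits genes of few UMIs, by construction; the cause of the others was not tested.

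Over the 299 members 8 of 1428 alternative gene ratios turned the sign of a main ratio past 2-fold. The 1428 also hold alternatives of main ratios under 2-fold, whose turns of sign were not counted. Actg2 for doxorubicin over control was -1.58 with at least 4 rule genes and -0.30 with equal weights, and Cyp17a1 was 0.76 in marker-rich cells. Fabp4 was 0.89 for doxorubicin+AMH over AMH and -1.87 for AMH over control in marker-rich cells. For doxorubicin+AMH over doxorubicin, Cyyr1 was 0.15 and Gstm1 -0.24 in marker-rich cells, and Magi2 was -0.40 with at least 4 rule genes. In marker-rich cells 5 of 1552, counted in the same way, turned the sign of a main ratio past 2-fold, all in steroid genes. For AMH over control Fdx1 was 0.90 and Hsd3b1 1.61 without the highest Scrublet scores, and 0.96 and 1.83 without cells high in other markers; for doxorubicin+AMH over doxorubicin Fdx1 was 0.027 without the highest scores. Of the list medians, 746 of 768 in marker-rich cells and 715 of 792 in all members stayed within the central range of the listed genes' own ratios. A median can change sign and still lie in that range, so these counts do not show that directions held. The marker-rich limit and the exclusions of the deepest cell and of cells high in other markers were chosen after the data were seen. Depth limits genes under the filter: in doxorubicin+AMH a count of 0 allows 4.08 CPM and 1 cell held 24.1% of UMIs.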
